A study of Homo sapiens with 6 samples.

Results

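The RNA decay machinery of the cell was followed here through the messenger RNAs that encode it. The set holds 34 genes, chosen by name, out of 62828 loci in the deposited table, and comprises the RNA exosome, the nuclear exosome targeting (NEXT) complex and its partners, nonsense-mediated decay, and decapping with decay from the 5′ end. The cells were K562, a human line established from a chronic myelogenous leukemia. One set of cells was transfected with 300 nM siRNA against HNRNPU, which encodes a nuclear RNA-binding protein, and the other with control oligos. For each of these 2 conditions, whole-cell, nuclear and cytosolic RNA was sequenced, which gives 6 groups of 1 library. With 1 library per group there is no replicate check, so differences are described by size and set beside all loci, and no p-value is given. The sources used here do not say whether 1 culture supplied all 3 preparations of a condition.

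The exosome is a barrel of non-catalytic subunits that threads RNA to 2 nucleases, DIS3 and EXOSC10, and degrades it from the 3′ end. In the nucleus, the helicase SKIV2L2 (also named MTR4) hands substrates to the exosome, together with ZCCHC8 and RBM7 in the NEXT complex for short-lived non-polyadenylated transcripts, or with ZFC3H1 and the poly(A)-binding protein PABPN1 for polyadenylated ones. Nonsense-mediated decay acts on translated messenger RNAs that carry a premature stop codon: the helicase UPF1 is phosphorylated by the kinase SMG1, and SMG6 cuts the RNA. General cytosolic decay removes the cap with DCP2 and degrades the body with XRN1. The members were divided by these roles into 9 core exosome subunits, 10 nuclear nucleases and cofactors, 9 nonsense-mediated decay factors and 6 decapping and 5′ decay factors. The first 2 roles are called nuclear surveillance below (19 genes) and the other 2 cytosolic decay (15 genes). The role names describe what the proteins do, and the 2 set names are labels for this comparison. The core exosome is placed in nuclear surveillance by this grouping alone, and fraction differences between the 2 sets are also given without it. Every value below is a level of the genes' own RNA.

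Levels are in FPKM (fragments per kilobase of transcript, scaled for library size), as the authors deposited them, so genes can be compared with each other within a library. Of all loci, 12838 averaged at least 1 FPKM over the 6 libraries and form the background, and all 34 members were among them. Ratios are differences of log2(FPKM + 0.1), which understates the change of low loci. Neighbouring genes are merged in the deposited table where they overlap, and 6 members share a locus with other genes. EXOSC3 lies in a locus with FBXO10, SHB, SLC25A51 and TOMM5, EXOSC7 with CLEC3B, RBM7 with REXO2, PABPN1 with BCL2L2, SMG8 with PRR11, and EDC4 with NRN1L, so their values cover those genes too. The other 28 members have a locus of their own. The sources used here do not say whether reads were counted by strand, or how reads matching several places were treated. GENCODE release 29 names pseudogenes after 5 members (SMG1, C1D, UPF3A, EXOSC3 and LSM1), 7 of them for SMG1, and the values of these 5 genes are uncertain by the share of reads they exchange with those copies.

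The targeted gene was lower in every preparation of the knockdown. The locus of HNRNPU, which also carries its antisense gene HNRNPU-AS1, had 55.3, 63.7 and 34.9 FPKM in whole-cell, nuclear and cytosolic RNA after knockdown, against 129, 163 and 158 FPKM in control, log2 ratios of -1.22, -1.36 and -2.18. MALAT1, a nuclear noncoding RNA, reached 2352 (nuclear) and 106 FPKM (cytosolic) after knockdown, against 1984 and 141 FPKM in control. Erythroid genes typical of K562 cells were present, with HBG1 between 88.6 and 238 FPKM and GATA1 between 26.2 and 55.9 FPKM. Among markers of other blood lineages, MS4A1 is listed at 0 in every library, CD14 stayed at or below 0.113 FPKM and CD3E at or below 2.12 FPKM, while PTPRC, which leukocytes share, had 22.3 to 61.7 FPKM. The depth, read from the smallest steps of single-exon loci, put 1 FPKM over 1 kb at 13.4 (control cytosolic) to 39.0 (knockdown nuclear) fragments. For the 28 members with a locus of their own, this gave 65.5 to 8362 fragments per library, and the counting errors (SE) below rest on these estimates and cover counting only.

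As a set the members stood somewhat above the typical locus. Their median was 12.2, 13.2 and 19.8 FPKM in whole-cell, nuclear and cytosolic RNA of the knockdown and 10.8, 12.8 and 17.1 FPKM in control. The same medians over protein-coding loci were 9.40, 10.2 and 14.8 FPKM after knockdown and 8.92, 9.98 and 14.5 FPKM in control. The locus of EXOSC3 was the highest, with 154, 134 and 472 FPKM after knockdown and 143, 132 and 477 FPKM in control. PABPN1 and RBM7 came next, at a mean over the 6 libraries of 69.7 and 61.1 FPKM, and these 3 highest values all belong to merged loci. Among members with a locus of their own, DCP2, the decapping enzyme, was the highest, with 32.9, 36.0 and 85.9 FPKM after knockdown and 25.3, 32.0 and 75.05 FPKM in control.

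The lowest members belonged to nonsense-mediated decay. SMG6, the endonuclease of that pathway, had 4.94, 4.63 and 5.05 FPKM in whole-cell, nuclear and cytosolic RNA after knockdown, against 3.66, 4.61 and 4.21 FPKM in control. UPF3B, which links UPF2 to the exon junction complex, had 5.18, 5.43 and 7.74 FPKM after knockdown and 4.92, 5.02 and 7.45 FPKM in control. SMG9, a regulator of the kinase SMG1, had 5.42, 6.81 and 7.44 FPKM after knockdown and 5.94, 6.35 and 7.67 FPKM in control. These 3 genes held the 3 lowest places in mean level. The core exosome subunits stood close together instead: the 7 with a locus of their own ranged in nuclear RNA over 9.49 to 16.1 FPKM after knockdown and 8.19 to 17.9 FPKM in control, a spread of 1.70-fold and 2.19-fold. In the same libraries the 8 nonsense-mediated decay genes with a locus of their own spread over 6.11-fold and 5.14-fold.

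**Figure D1:**
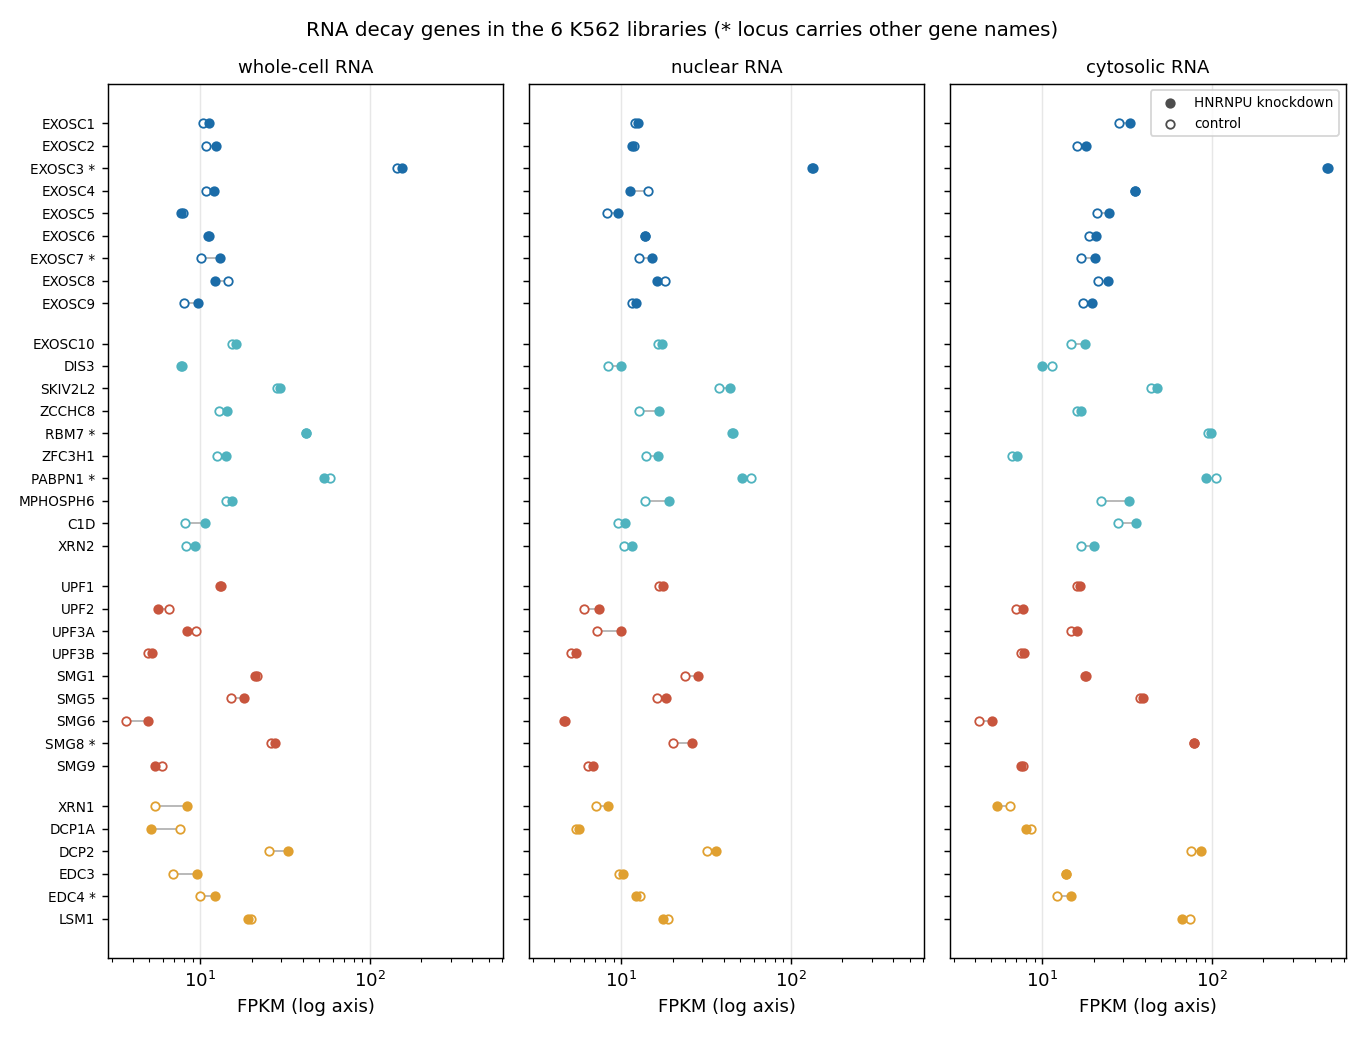
Level of each of the 34 decay genes in whole-cell, nuclear and cytosolic RNA, in FPKM on a log axis, with HNRNPU knockdown as filled and control as open circles, coloured by role from core exosome (top) to decapping (bottom). Both circles of a gene lie close together in most panels, and the merged EXOSC3 locus lies far to the right, at 472 FPKM in knockdown and 477 FPKM in control cytosolic RNA.

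Knockdown of HNRNPU was followed by small differences in these genes. No member reached a 2-fold difference in any preparation, and 1 reached 1.5-fold, XRN1 in whole-cell RNA. Of all loci, 4.76% passed 1.5-fold upward and 3.86% downward in whole-cell RNA. For nuclear RNA these shares were 3.86% and 4.74%, and for cytosolic RNA 6.41% and 5.9%. A 2-fold difference was passed by 1.36% and 1.29% of all loci in whole-cell RNA, by 1.04% and 1.5% in nuclear RNA and by 2.62% and 2.63% in cytosolic RNA. The median log2 ratio of the members was 0.10, 0.11 and 0.11 in whole-cell, nuclear and cytosolic RNA, against 0.06, 0.03 and 0.03 over all loci. The RNA of a whole culture was measured, so a small difference in every cell and a larger one in part of the cells cannot be told apart.

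Small differences often had the same direction. Across the 3 preparations, 16 of the 34 members (47.1%) were higher after knockdown each time, against 24.6% of all loci, and 2 (5.88%) were lower each time, against 13.2%. The 16 were 3 core exosome subunits, 7 nuclear nucleases and cofactors, 4 nonsense-mediated decay genes and 2 decapping genes, and between 13 and 16 met the same description under the other pseudocounts, filters and scalings. Members above 0 numbered 23 of 34 for whole-cell, 26 for nuclear and 27 for cytosolic RNA, beside 60.7%, 54% and 54.3% of all loci. The medians of protein-coding loci were themselves above 0, at 0.07, 0.04 and 0.04, and 20, 24 and 23 members stood above them. Many of these differences lie within counting error: of the 28 members with a locus of their own, 10, 13 and 9 differed by more than the 95% counting range in whole-cell, nuclear and cytosolic RNA. No share of all loci past this range is given here, for these counts or for those by role below. Whether such counts are unusual was not tested.

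**Figure D2:**
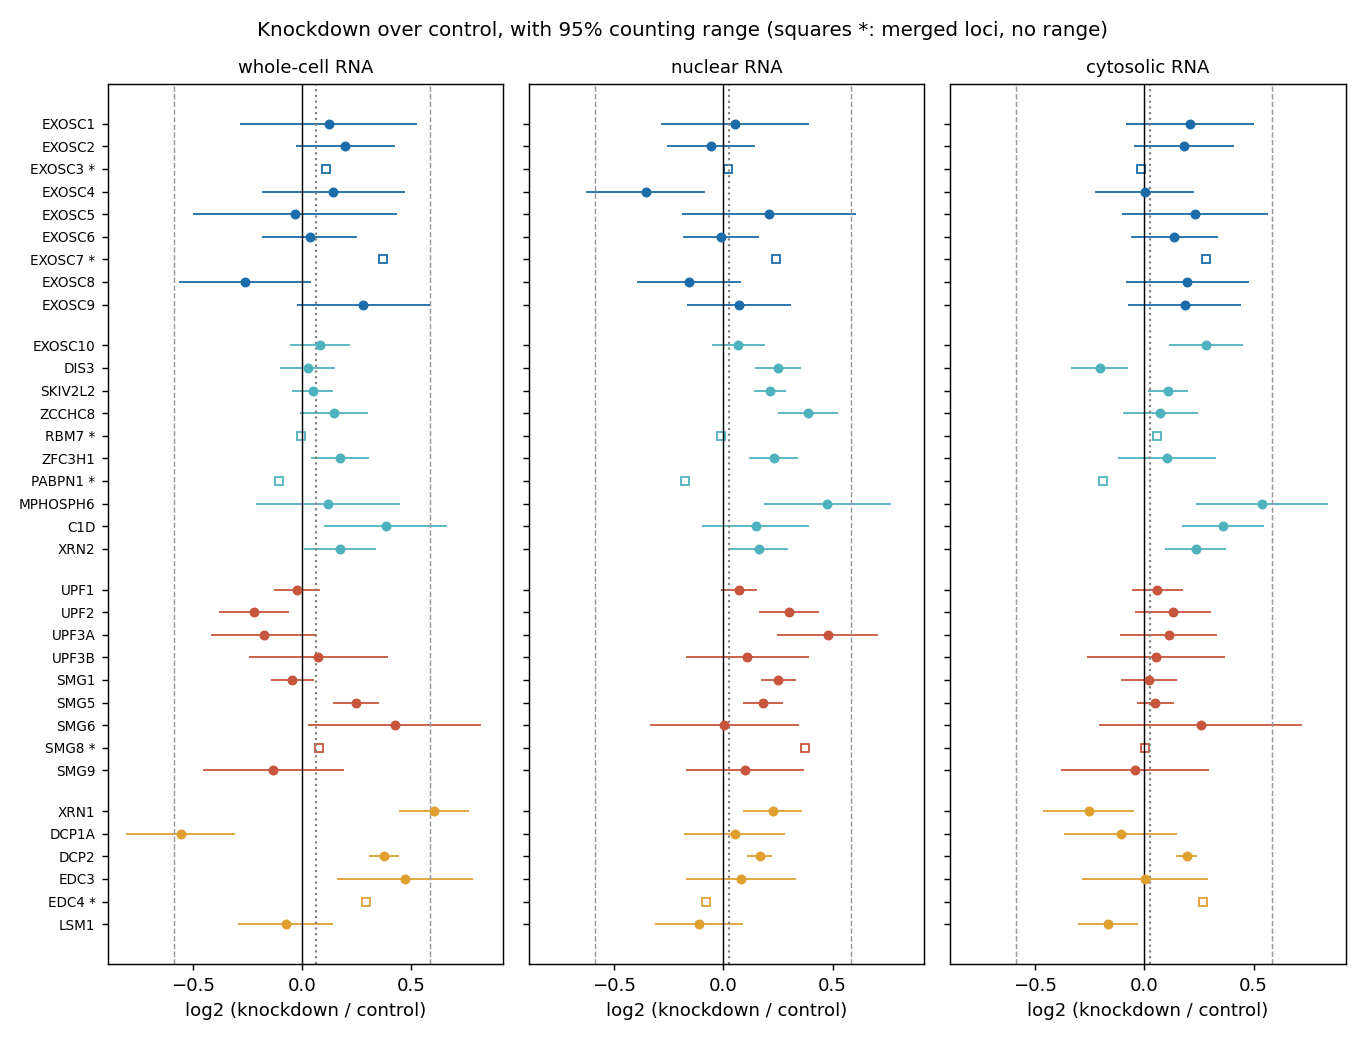
Log2 ratio of knockdown over control for each decay gene in the 3 preparations, with bars for the 95% counting range of the 28 genes with a locus of their own and squares for merged loci; dashed lines mark 1.5-fold and the dotted line the median of all loci. Most points lie right of 0, XRN1 lies at 0.60 in whole-cell RNA and -0.25 in cytosolic RNA, and the nonsense-mediated decay genes all lie right of 0 in nuclear RNA (8 of 9 with equalised totals).

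The core exosome subunits differed little between knockdown and control. In cytosolic RNA 8 of 9 had log2 ratios above 0 (7 under 2 of the scalings, 9 with equalised totals), beside 54.3% of all loci, with a median of 0.18, and in nuclear RNA 5 of 9 with a median of 0.02. Of the 7 subunits with a locus of their own, 0 passed the 95% counting range in cytosolic RNA and 1, EXOSC4, in nuclear RNA. EXOSC7, a subunit of the ring, had 13.1, 15.1 and 20.5 FPKM in whole-cell, nuclear and cytosolic RNA after knockdown, against 10.1, 12.7 and 16.8 FPKM in control, but its locus also counts CLEC3B. EXOSC4, another ring subunit, had 12.0, 11.2 and 35.2 FPKM after knockdown and 10.9, 14.4 and 35.1 FPKM in control. Its nuclear log2 ratio of -0.35, with a counting error of 0.14, was the lowest of all members there. EXOSC8, also in the ring, had 12.2, 16.1 and 24.3 FPKM after knockdown and 14.6, 17.9 and 21.2 FPKM in control, lower in 2 preparations and higher in cytosolic RNA. The remaining subunits (EXOSC1, EXOSC2, EXOSC3, EXOSC5, EXOSC6 and EXOSC9) had log2 ratios between -0.06 and 0.28 over the 3 preparations.

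The nuclear nucleases and cofactors held the genes with the largest differences of 1 direction. MPHOSPH6, a small exosome cofactor of the nucleus, had 15.4, 19.1 and 32.3 FPKM in whole-cell, nuclear and cytosolic RNA after knockdown, against 14.1, 13.7 and 22.2 FPKM in control. Its log2 ratios were 0.12, 0.48 and 0.54 with counting errors of 0.17, 0.15 and 0.15. The highest ratio of any member in cytosolic RNA was this one. C1D, which binds EXOSC10, had 10.6, 10.6 and 35.7 FPKM after knockdown and 8.10, 9.51 and 27.8 FPKM in control, ratios of 0.38, 0.15 and 0.36. XRN2, the exonuclease that degrades nuclear RNA from the 5′ end at transcription termination, had 9.32, 11.5 and 19.99 FPKM after knockdown and 8.25, 10.3 and 16.97 FPKM in control. All 3 of its ratios, 0.17, 0.16 and 0.24, exceeded the 95% counting range.

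Among the NEXT genes, SKIV2L2 and ZCCHC8 were higher in nuclear RNA after knockdown by more than counting error. SKIV2L2, its helicase, had 29.4, 43.3 and 47.1 FPKM in whole-cell, nuclear and cytosolic RNA after knockdown, against 28.4, 37.4 and 43.6 FPKM in control. ZCCHC8, its scaffold, had 14.3, 16.6 and 16.9 FPKM after knockdown and 12.9, 12.7 and 16.0 FPKM in control. The nuclear ratios were 0.39 for ZCCHC8, with a counting error of 0.07, and 0.21 for SKIV2L2, with a counting error of 0.04. RBM7, the RNA-binding subunit, had 41.9, 44.8 and 98.4 FPKM after knockdown and 42.0, 45.1 and 94.4 FPKM in control in the locus it shares with REXO2. SKIV2L2 was above 0 in each preparation, but its whole-cell ratio of 0.05 changed sign under all 3 alternative scalings.

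The partners for polyadenylated RNA went in opposite directions by small amounts. ZFC3H1 had 14.2, 16.5 and 7.11 FPKM after knockdown and 12.6, 14.0 and 6.60 FPKM in control, higher each time. PABPN1, in the locus it shares with BCL2L2, had 53.8, 51.3 and 92.1 FPKM after knockdown and 58.0, 57.9 and 105 FPKM in control, lower each time with ratios of -0.11, -0.18 and -0.19. Of the 2 nucleases of the exosome, EXOSC10 had 16.3, 17.3 and 17.9 FPKM after knockdown and 15.4, 16.5 and 14.7 FPKM in control. DIS3 had 7.79, 9.93 and 9.92 FPKM after knockdown and 7.65, 8.33 and 11.4 FPKM in control. DIS3 was thus higher in nuclear RNA (0.25, counting error 0.05) and lower in cytosolic RNA (-0.20, counting error 0.07).

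Several nonsense-mediated decay genes were higher after knockdown in nuclear RNA, all by less than 1.5-fold. There, 9 of 9 had log2 ratios above 0 with a median log2 ratio of 0.18 (8 of 9 with library totals equalised without mitochondrial and small RNA loci), against 54% of all loci. Of the 8 with a locus of their own, 4 (UPF2, UPF3A, SMG1 and SMG5) passed the 95% counting range in nuclear RNA, and UPF1, UPF3B, SMG6 and SMG9 lay within it. In cytosolic RNA 8 of 9 were above 0 with a median of 0.05 (6 under the other 2 scalings), and in whole-cell RNA 4 of 9 with a median of -0.02. UPF3A, a paralog of UPF3B, had 8.35, 9.98 and 16.0 FPKM in whole-cell, nuclear and cytosolic RNA after knockdown, against 9.43, 7.14 and 14.8 FPKM in control. Its nuclear ratio of 0.48 (counting error 0.12) was level with that of MPHOSPH6 as the highest among all members, while its whole-cell ratio was -0.17. UPF2, the adaptor of UPF1, had 5.60, 7.40 and 7.63 FPKM after knockdown and 6.54, 5.99 and 6.96 FPKM in control, with the same split between whole-cell RNA and the fractions. UPF1 had 13.1, 17.6 and 16.7 FPKM after knockdown and 13.3, 16.7 and 16.0 FPKM in control, ratios of -0.02, 0.07 and 0.06.

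The kinase SMG1 had 20.9, 28.2 and 18.0 FPKM after knockdown and 21.6, 23.7 and 17.8 FPKM in control. Its nuclear ratio was 0.25 with a counting error of 0.04, subject to the pseudogene copies named above. SMG8, an inhibitor of SMG1 counted with PRR11, had 27.5, 26.05 and 78.0 FPKM after knockdown and 26.01, 20.1 and 77.9 FPKM in control. SMG5, which brings phosphorylated UPF1 to decay enzymes, had ratios of 0.25, 0.18 and 0.05. SMG6 had 0.01 in nuclear and 0.26 in cytosolic RNA, with counting errors of 0.17 and 0.24.

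Decapping and 5′ decay genes held both extremes of whole-cell RNA. XRN1, the main cytosolic exonuclease from the 5′ end, had 8.31, 8.31 and 5.37 FPKM in whole-cell, nuclear and cytosolic RNA after knockdown, against 5.44, 7.08 and 6.43 FPKM in control. Its whole-cell log2 ratio was 0.60 with a counting error of 0.08, just past 1.5-fold (0.585), and it fell under that line with a pseudocount of 1 FPKM and under 2 of the 3 scalings. DCP1A, the partner of DCP2, had the lowest whole-cell ratio of all members, -0.56 with a counting error of 0.13, with 5.10 FPKM after knockdown and 7.54 FPKM in control; under each of the 3 scalings it passed 1.5-fold. In the fractions its ratios were 0.05 and -0.11. DCP2 was higher each time, with ratios of 0.37, 0.17 and 0.19, each several times its counting error. LSM1, part of the ring that binds the 3′ end of deadenylated RNA, was lower each time, with 19.0, 17.5 and 66.0 FPKM after knockdown and 19.997, 18.9 and 74.1 FPKM in control. EDC4, a scaffold of decapping in the locus it shares with NRN1L, had 12.3, 12.2 and 14.8 FPKM after knockdown and 9.99, 12.9 and 12.2 FPKM in control. The decapping enhancer EDC3 had ratios of 0.47, 0.08 and 0.00.

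Promoters are shown for the 3 members with a locus of their own that were higher in each preparation by the largest mean ratio, MPHOSPH6, C1D and DCP2, and for PABPN1, the member lower by the largest mean. PABPN1 was measured in the locus it shares with BCL2L2, and LSM1, the other member lower each time, had no promoter window. Each window holds 280 bases, 250 before and 30 from the start of the gene, from RefSeq on GRCh38.p14. MPHOSPH6 lies at chr16:82170195-82170474 on the minus strand, C1D at chr2:68062975-68063254 on the minus strand, DCP2 at chr5:112976548-112976827 on the plus strand and PABPN1 at chr14:23321207-23321486 on the plus strand. Capitals mark GC boxes (GGGCGG or its reverse complement) and CCAAT boxes (CCAAT or its reverse complement); the 3 GC boxes of MPHOSPH6 overlap by 1 base each.
MPHOSPH6: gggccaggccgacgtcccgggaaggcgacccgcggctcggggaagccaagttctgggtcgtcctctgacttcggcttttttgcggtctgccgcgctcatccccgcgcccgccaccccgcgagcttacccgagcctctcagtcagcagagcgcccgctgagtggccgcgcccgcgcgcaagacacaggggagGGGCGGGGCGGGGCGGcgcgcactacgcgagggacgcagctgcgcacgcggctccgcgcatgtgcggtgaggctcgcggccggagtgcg
C1D: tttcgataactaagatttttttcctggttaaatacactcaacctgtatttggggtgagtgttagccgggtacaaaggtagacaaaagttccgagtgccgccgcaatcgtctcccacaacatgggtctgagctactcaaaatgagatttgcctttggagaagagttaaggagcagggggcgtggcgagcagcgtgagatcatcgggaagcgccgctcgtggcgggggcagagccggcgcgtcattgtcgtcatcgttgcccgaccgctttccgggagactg
DCP2: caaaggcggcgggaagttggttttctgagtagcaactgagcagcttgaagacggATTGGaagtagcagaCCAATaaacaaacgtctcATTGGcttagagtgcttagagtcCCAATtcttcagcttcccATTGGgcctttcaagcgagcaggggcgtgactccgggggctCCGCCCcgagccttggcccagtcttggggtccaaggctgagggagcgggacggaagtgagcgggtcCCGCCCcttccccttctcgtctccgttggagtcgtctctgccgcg
PABPN1: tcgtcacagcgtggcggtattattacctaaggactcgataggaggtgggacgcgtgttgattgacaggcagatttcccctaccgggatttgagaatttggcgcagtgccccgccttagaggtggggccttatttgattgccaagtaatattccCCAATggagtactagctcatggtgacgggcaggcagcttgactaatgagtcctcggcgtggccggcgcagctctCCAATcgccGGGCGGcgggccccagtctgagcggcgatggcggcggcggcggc
DCP2 held 5 CCAAT boxes and 2 GC boxes, PABPN1 2 CCAAT boxes and 1 GC box, and C1D neither, so the 3 genes that were higher share neither motif. Of the 34 members, 30 had a window (EXOSC1, EXOSC4, SMG8 and LSM1 had none). A GC box stood in 23 of the 30 (76.7%), against 57.5% of 15843 protein-coding promoters and 43.7% of all 27305 promoters in the table. A CCAAT box stood in 12 (40%), against 35.8% and 34.7%, and the ETS core CCGGAAG in 5 (16.7%), against 13.9% and 10.3%. TATAAA was found in 1 member, EXOSC8 (3.33%), against 9.46% and 11.6%, and EXOSC8 alone held a YY1 motif of 10 letters (3.33%), against 1.401% and 0.963%. An NRF1 motif of 10 letters was found in 0 of the 30 windows, against 1.72% and 1.33%. All motifs were searched on both strands.

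Nuclear surveillance and cytosolic decay genes did not separate by where their RNA was found. The log2 ratio of nuclear over cytosolic FPKM had a median of -0.69 for nuclear surveillance and -0.43 for cytosolic decay after knockdown, and of -0.58 and -0.51 in control. The difference between the 2 sets, nuclear surveillance minus cytosolic decay, was -0.26 after knockdown and -0.06 in control, and without the core exosome -0.00 and -0.06, from ratios that spanned -1.91 to 1.204 and -1.96 to 1.08. Over all members the median was -0.58 after knockdown and -0.54 in control, beside -0.61 over protein-coding loci in each condition and -0.47 and -0.44 over all loci. FPKM is relative to its own library, so 0 does not mark equal amounts in the compartments, and scaling choices moved the median of all loci by up to 0.97. Within the deposited scale, 5 of 34 members were above 0 after knockdown and 7 in control, against 32.9% and 34.8% of all loci. At least 1.5-fold more in cytosolic RNA was seen for 17 members after knockdown and 15 in control, against 45% of all loci in each condition. The order among the genes does not depend on that zero.

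ZFC3H1 stood apart as the most nuclear member. Its nuclear over cytosolic ratio was 1.204 after knockdown and 1.08 in control, and it was the 1 member with at least 2-fold more in nuclear RNA, against 14.4% of all loci after knockdown and 16% in control. This count was 3 after knockdown with libraries scaled to their medians, 4 after knockdown and 7 in control with equalised totals, 2 and 2 after quantile normalization, and 0 in control with a pseudocount of 1 FPKM. The shares of all loci in this paragraph are for the deposited scale and a pseudocount of 0.1 FPKM. Each of the 3 scalings also raised the median ratio of all loci. By the mean of both conditions SMG1 came next, at 0.65 after knockdown and 0.41 in control, then XRN1 at 0.62 and 0.14, and UPF1 at 0.07 and 0.06. SMG1, XRN1 and UPF1, the genes after ZFC3H1 in this order, all belong to cytosolic decay. EXOSC10, of nuclear surveillance, followed UPF1 closely, at -0.05 after knockdown and 0.17 in control. In control alone EXOSC10 stood above XRN1 and UPF1. At the cytosolic end LSM1 had -1.91 after knockdown and -1.96 in control, EXOSC3 -1.81 and -1.85, SMG8 -1.58 and -1.95 and C1D -1.75 and -1.54. These 4 come from all 4 roles, but EXOSC3 and SMG8 were measured in merged loci, so their ratios cover other genes too. A ratio of at least 2-fold toward cytosolic RNA was reached by 10 members after knockdown and 11 in control against 28.4% and 29.1% of all loci; these counts were 5 and 4 with libraries scaled to their medians, 2 and 2 after quantile normalization and 0 and 0 with equalised totals. The core exosome held 4 of them in each condition (EXOSC1, EXOSC3, EXOSC4 and EXOSC5). Across the 34 members the ratios of knockdown and control had a Pearson r of 0.95, beside 0.91 across 10289 protein-coding loci, which describes genes and not replicates.

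**Figure D3:**
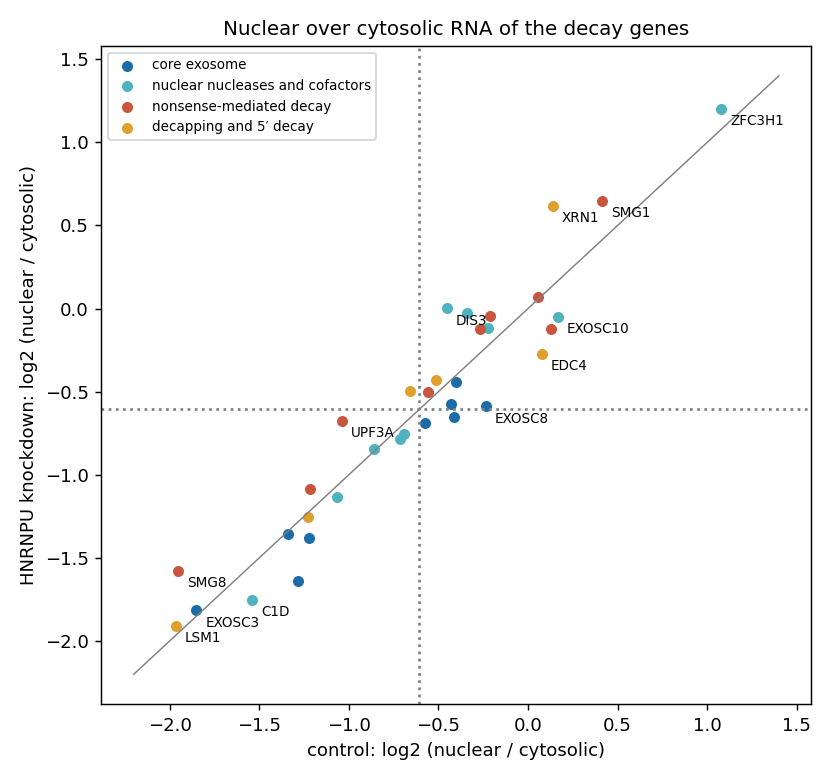
Log2 ratio of nuclear over cytosolic FPKM for each decay gene, in control on the horizontal and in HNRNPU knockdown on the vertical axis, coloured by role, with a line of equality and dotted lines at the protein-coding medians. The points follow the line, ZFC3H1 lies at the top right (1.204 in knockdown and 1.08 in control) and LSM1 at the bottom left (-1.91 and -1.96).

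Whole-cell RNA did not lie between the fractions for most members. The whole-cell FPKM was below both fractions in 22 of the 34 (64.7%) after knockdown and in 22 in control, 16 of them in both, against 48.4% of all loci after knockdown and 49.9% in control. It lay between them in 11 members after knockdown and 12 in control, against 39.4% and 39% of all loci. XRN1 was the 1 member above both, after knockdown, where its whole-cell and nuclear values both round to 8.31 FPKM. The labels' protocols name one provider for rRNA depletion and another for total RNA sequencing, and the part of that in these levels was not tested.

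The localization shift, the nuclear over cytosolic log2 ratio after knockdown minus that in control, was small in every role. Over all 34 members its median was 0.01 and 18 were above 0, against 50% of all loci. No member reached 1.5-fold, a size that 7.59% of all loci reached toward nuclear and 9.2% toward cytosolic RNA, or 2-fold, which 3.28% and 3.82% reached. By role, 1 of 9 core exosome subunits was above 0 (median -0.15), 5 of 10 nuclear nucleases and cofactors (median -0.02), 8 of 9 nonsense-mediated decay genes (median 0.14) and 4 of 6 decapping genes (median 0.07). Past the 95% counting range were 1 of 7 core exosome subunits, 3 of 8 nuclear nucleases and cofactors, 3 of 8 nonsense-mediated decay genes and 1 of 5 decapping genes with a locus of their own, and the difference between roles was not tested. The scalings left the core exosome at 0 to 2 of 9 and nonsense-mediated decay at 7 or 8 of 9. Among subunits with a locus of their own, 0 of 7 were above 0, since the exception was the merged EXOSC3 locus at 0.04. Nuclear surveillance had a median of -0.07 and cytosolic decay of 0.13, a difference of -0.20, or -0.15 without the core exosome.

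Counting error alone covers most single shifts. Of the 28 members with a locus of their own, 8 shifted by more than the 95% counting range, 6 upward and 2 downward, and the matching share of all loci is not given here. XRN1 had the highest shift, 0.48 with a counting error of 0.13, from ratios of 0.62 after knockdown and 0.14 in control. DIS3 followed at 0.45 with a counting error of 0.09, from ratios of 0.00 and -0.45. SMG8 and UPF3A each had 0.37, ZCCHC8 0.31 and SMG1 0.23, which puts 3 nonsense-mediated decay genes among the 6 highest. Of these, SMG8 was measured in its merged locus, and UPF3A and SMG1 are subject to the pseudogene copies named above. SMG5 (0.13) completes the upward genes past counting error, with XRN1, DIS3, UPF3A, ZCCHC8 and SMG1. At the other end EXOSC4 had -0.36 with a counting error of 0.18 and EXOSC8 -0.35 with a counting error of 0.19, and EXOSC8 lay within its 95% range. EDC4 had -0.35 in its merged locus and SMG6 -0.25 with a counting error of 0.29. EXOSC10, the nuclear partner of DIS3 in the exosome, had -0.21 with a counting error of 0.11, opposite in sign to DIS3.

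**Figure D4:**
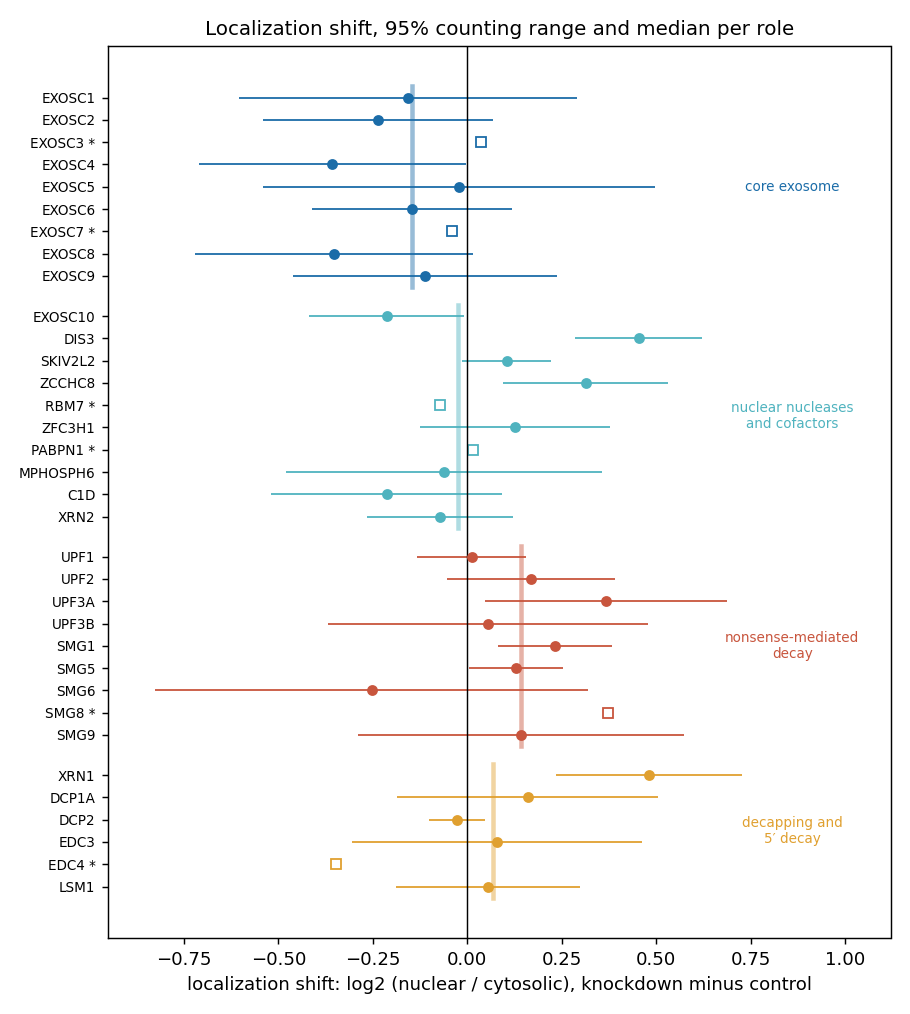
Localization shift of each decay gene (log2, knockdown minus control), with the 95% counting range for genes with a locus of their own, squares for merged loci and a vertical bar at the median of each role. On the deposited scale the core exosome lies left of 0 except EXOSC3, and the nonsense-mediated decay genes lie right of 0 except SMG6 (7 of 9 with equalised totals).

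Genes with a longer mean annotated transcript tended to have the higher shifts among these genes. Across the 28 members with a locus of their own, the shift had a Pearson r of 0.57 with the log length of the annotated coding transcripts (mean per gene, GENCODE release 29, at most the length of the locus) and a Spearman rho of 0.58, beside 0.07 and 0.09 across 9014 protein-coding loci. The points share the 4 libraries of the fractions, and genes are not replicates. The mean gives each annotated transcript the same weight, and the transcripts present were not measured. SMG6 (shift -0.25) thus stands at 1385 bases from 12 coding transcripts, and EDC3 (0.08) at 1211 bases from 15. No r is given here for the longest transcript of each gene or without the core exosome. Of 5 members under 1 kb, 0 were above 0 (median -0.16), against 43.1% of protein-coding loci of that length, and of 7 members over 4 kb, 6 were above 0 (median 0.17), against 57.3%. The limit at the locus length applied to 1 member, EXOSC6, with 5153 annotated bases in a locus of 1700 bases. Without that limit, an alternative chosen after seeing the data, the Pearson r was 0.51 and Spearman's rho 0.52, and 6 of 8 members over 4 kb were above 0 (median 0.15), against 56.6% of protein-coding loci. With the limit, all 7 core exosome subunits with a locus of their own were under 2 kb, and of the other 8 members under 2 kb, 5 were above 0.

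**Figure D5:**
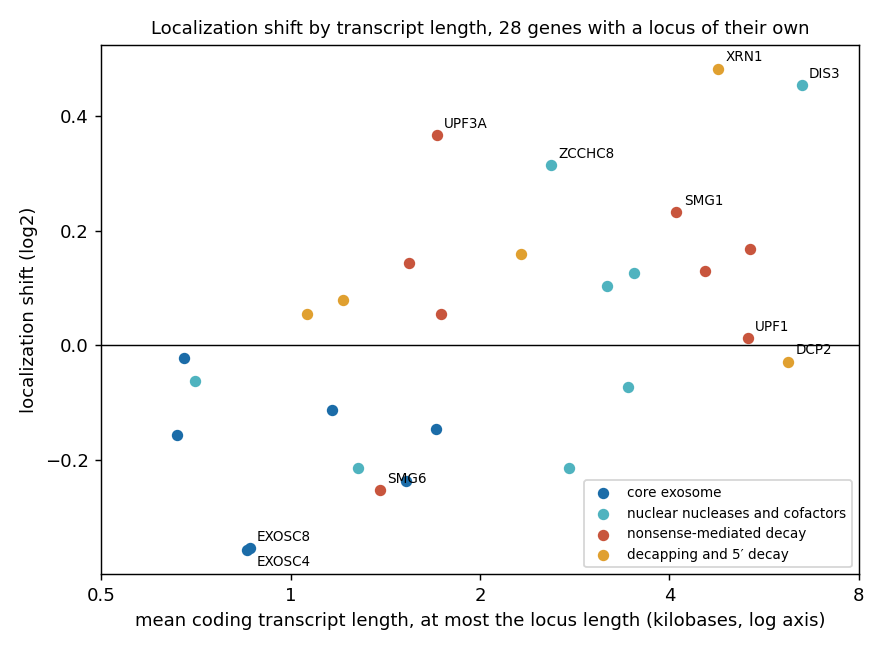
Localization shift (log2) against the mean length of annotated coding transcripts, at most the locus length (kilobases, log axis), for the 28 decay genes with a locus of their own, coloured by role. Short core exosome genes such as EXOSC4 (-0.36) lie below 0, and the long genes DIS3 (0.45) and XRN1 (0.48) lie highest.

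The nuclear over cytosolic ratio itself had a Pearson r of 0.55 with transcript length after knockdown and 0.42 in control, beside 0.28 and 0.24 across protein-coding loci. The 9 members in loci of under 20 kb had a median ratio of -0.69 after knockdown and -0.58 in control, and the 10 in loci of 50 kb or more of -0.12 and -0.22. Protein-coding loci of these lengths had medians of -0.82 and -0.77, and of -0.41 and -0.46. ZFC3H1 (chr12:72003252-72061505, hg19), XRN1 (chr3:142025449-142166904) and SMG1 (chr16:18816175-18937776) all lie in loci of over 50 kb, but so does C1D (chr2:68268262-68338080), near the cytosolic end. GENCODE lists a transcript of the nonsense-mediated decay type for 17 of the 34 members (50%), against 44.3% of 9014 protein-coding genes, and a retained-intron transcript for 26 (76.5%), against 59.3%. The deposited table gives 1 value per locus, so transcripts of these types were not measured apart.

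Other genes of RNA decay, 53 non-members, also differed by small amounts. They comprise nuclear adaptors and cap-binding proteins, the SKI complex, other exonucleases, CCR4-NOT, other decapping factors, the exon junction complex with termination factors and other nonsense-mediated decay genes. At least 1.5-fold differences were seen in 1 of 53, C17orf85 in whole-cell RNA, and in 0 of 53 in nuclear and cytosolic RNA. Their median log2 ratios were 0.07, 0.05 and 0.04 in whole-cell, nuclear and cytosolic RNA. Each time higher were 17 and each time lower 8 of the 53, beside 24.6% and 13.2% of all loci. C17orf85, a cap-binding protein, had 13.1, 14.9 and 15.1 FPKM after knockdown and 8.36, 10.3 and 12.4 FPKM in control. MAGOHB, of the exon junction complex, had 7.03, 8.85 and 19.9 FPKM after knockdown and 10.4, 11.6 and 25.3 FPKM in control. SRRT, which joins the cap-binding complex to the nuclear exosome, had 25.2, 26.8 and 22.8 FPKM after knockdown and 26.2, 33.6 and 31.8 FPKM in control. WDR61, a subunit of the SKI complex, had 10.9, 15.6 and 22.4 FPKM after knockdown and 14.9, 17.3 and 25.9 FPKM in control. Of these 4, only C17orf85 was higher after knockdown.

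The 53 had a median localization shift of 0.07, with 31 above 0, against 50% of all loci. CNOT6L, a deadenylase named here after its value was seen, was the 1 at 1.5-fold or more, at 0.64. Of all loci, 7.59% reached that size toward nuclear and 9.2% toward cytosolic RNA. Of the other nonsense-mediated decay genes, NBAS had a shift of 0.11 and DHX34 one of -0.04.

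Transcripts known as targets of nonsense-mediated decay had no common direction between knockdown and control. Of 8, UPP1 in whole-cell RNA and ATF3 in nuclear RNA were at least 1.5-fold higher, beside 4.76% and 3.86% of all loci. None was that much lower, beside 3.86%, 4.74% and 5.9% of all loci in whole-cell, nuclear and cytosolic RNA. Whether these calls are unusual was not tested. ATF3, a stress transcription factor, had 10.3, 15.6 and 22.3 FPKM after knockdown and 8.39, 10.2 and 18.3 FPKM in control. GADD45B, a stress and growth arrest gene, had 4.43, 7.02 and 0.858 FPKM after knockdown and 5.92, 8.78 and 1.22 FPKM in control. UPP1, uridine phosphorylase, had 2.98, 1.88 and 3.10 FPKM after knockdown and 1.505, 1.74 and 3.46 FPKM in control. GADD45A had 15.4, 18.2 and 27.5 FPKM after knockdown and 15.4, 21.7 and 29.5 FPKM in control. ATF3 was higher in every preparation, GADD45B lower in every preparation, GADD45A lower in the fractions and equal in whole-cell RNA, and UPP1 mixed. Over the 8 targets the median log2 ratios were 0.03, 0.06 and -0.10 in whole-cell, nuclear and cytosolic RNA.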

How the data were processed

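The authors deposited 1 table of FPKM values, 1 column per library, and no replicates. Per the submitters' processing notes, CASAVA, FastQC, TopHat2 2.0.13 and Cuffdiff 2.2.1 were used and hg19 is among the builds. The sources used here do not give the annotation, library scaling, strand use or treatment of multiply mapped reads. Per the labels' protocols, TRIzol extraction and rRNA depletion preceded strand-specific library preparation and HiSeq X-10 sequencing.

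A member was every locus whose comma-separated names hold it. Ratios are differences of log2(FPKM + 0.1) between the deposited FPKM values, over the 12838 loci averaging 1 FPKM or more (1380 of them merged, 10289 protein-coding by GENCODE release 29 symbols). Calls are by size, 1.5-fold and 2-fold, without a test. Deposited starts count from 0, since end minus start equals the annotated gene length at 71.7% of 30913 single-name loci, and are given counted from 1. One fragment's FPKM was read from single-exon loci (90.2% or more of low values within 0.15 of a whole number), and counting errors are Poisson, with the mean length of annotated coding transcripts, at most the locus length, as length. Genes named with full values are, by rule, the extremes of level, fraction ratio, shift and knockdown ratio plus the NEXT, UPF and main nuclease genes. The members and lists were chosen with earlier results of these data known. The depth step was tested on simulated data. Scripts ran in Python 3.11.15 with matplotlib 3.10.9, scipy 1.17.1, pandas 2.3.3 and numpy 2.4.6. Alternatives covered the pseudocount, the filter, 3 scalings, single-name loci and the core exosome left out. Values of some listed genes are not reported here.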

Additional observations from a re-analysis of the deposited data

Results flagged for a closer look

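DIS3, a nuclease of the exosome, and XRN1, the main 5′ exonuclease of the cytosol, moved in opposite directions in the 2 fractions by more than their 95% counting range. DIS3 had a knockdown over control log2 ratio of 0.25 in nuclear and -0.20 in cytosolic RNA, a difference of 0.45. XRN1 had 0.23 in nuclear and -0.25 in cytosolic RNA, a difference of 0.48. Each direction rests on 1 library per group, and the difference was not tested.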

How the results depend on the processing

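No paired analysis was possible because each group has 1 library. Of 262 values under alternatives for 32 results, 233 kept their direction and size, and the other 29 follow; the cause was not tested. With a pseudocount of 1 FPKM, members at least 1.5-fold higher in whole-cell RNA numbered 0, and members at least 2-fold nuclear in control 0. Without a filter, the median nuclear over cytosolic ratio of members minus all loci after knockdown was -0.58. The median of all loci was then 0, against -0.47 with the filter, and all members were kept under both. With libraries scaled to their medians, 0 members were at least 1.5-fold higher and 1 lower in whole-cell RNA; 3 were 2-fold nuclear and 5 cytosolic after knockdown, and in control 4 were cytosolic and the median ratio was -0.12. With equalised totals, 0 were 1.5-fold higher and 1 lower in whole-cell RNA, the median fraction ratio turned to 0.38 after knockdown and 0.45 in control, 4 and 7 members were 2-fold nuclear, and 0 and 0 cytosolic. After quantile normalization, 1 was 1.5-fold lower in whole-cell RNA, the medians were -0.0236 and -0.0147, 2 and 2 members were 2-fold nuclear, 2 and 2 cytosolic, and nuclear surveillance minus cytosolic decay was -0.15 after knockdown. With single-name loci, that difference was 0.0595 in control, and 1 member was lower in all 3 preparations. Without the core exosome it was -0.00416 after knockdown, and 0.078 for the knockdown ratio in nuclear RNA. By the length used, depth limits SMG6 most, at 65.5 fragments in the shallowest library. That length, 1385 bases, is a mean over 12 annotated coding transcripts. A longer transcript would give more fragments and smaller counting errors for SMG6, and the length present was not measured.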
